A study of Homo sapiens with 8 samples.

Results

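The BCL2 family controls whether the outer membrane of the mitochondria is opened and the cell dies. BAX and BAK1 are the effectors that perforate the outer mitochondrial membrane, the anti-apoptotic proteins BCL2, BCL2L1 (BCL-X) and MCL1 hold them back, and the BH3-only proteins BBC3 (PUMA), PMAIP1 (NOXA), BID, BIK and BCL2L11 (BIM) relieve that restraint or activate the effectors directly. Epithelial cells that lose survival signals or attachment are commonly removed through this pathway. Expression of these 10 genes was compared between 4 siESRP and 4 siGFP arrays. A gene was taken as measured where the platform annotation gave a row of the array exactly 1 symbol and that symbol was the gene. By that rule 9 of the 10 had a row, 1 each, out of 14271 genes with such a row and 18495 rows in all. MCL1 shared its row with 2 other genes and is not analysed here.

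The cells were PNT2, an established line of human prostatic epithelium immortalized with SV40 large T antigen. The siESRP samples received small interfering RNA against ESRP1 and ESRP2, epithelial RNA-binding proteins that regulate splicing, and the siGFP controls received small interfering RNA against green fluorescent protein. Total RNA was hybridized to Affymetrix human exon arrays, 1 array per sample, with 4 arrays in each group. Whether the 4 samples of a group are separate cultures is not stated, and the p-values rest on the spread among them, part or all of which may be technical.

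ESRP1 averaged 582 ± 66.9 in siESRP and 2439 ± 169 in siGFP (SD, n = 4 each). The row shared by ESRP2 and NFATC3 averaged 148 ± 27.4 in siESRP and 531 ± 33.4 in siGFP. Values are array intensities after quantile normalization, and some lie below 0, so an intensity near or below 0 cannot be told from background, and no gene's level is ranked against another's. The epithelial markers CDH1, EPCAM, KRT8, KRT18 and KRT19 were all far above 0 on every array, and 3 of the 5 rose (CDH1, KRT18 and KRT19). Of 4 luminal prostate markers only KLK3 had its own row, with means of 65.2 in siESRP and 61.7 in siGFP. Of 4 basal markers, 2 were measured. KRT14 fell 2.06-fold, to 367 ± 41.6 in siESRP, against 765 ± 161 in siGFP (SD, n = 4 each; limma adjusted p = 0.00465), and ITGA6 rose 1.30-fold (limma adjusted p = 0.00690). Summed over 5 epithelial markers, intensity ran from 23980 to 24850 in siESRP and from 20990 to 22140 in siGFP. Over 5 leukocyte markers, of which 1 fell (CSF1R), the sum ran from 142.4 to 174.5 in siESRP and from 206.7 to 255.2 in siGFP. PTPRC, a defining leukocyte gene, averaged 12.8 in siESRP and 10.7 in siGFP. Over 5 fibroblast markers, of which 1 fell (COL1A1), the sum ran from 292.8 to 364.9 in siESRP and from 390.8 to 451.2 in siGFP. Over 4 endothelial markers, of which 1 rose (CDH5) and 1 fell (TEK), it ran from 381 to 473.4 in siESRP and from 313.2 to 371.2 in siGFP. TEK averaged 22.06 in siESRP and 30.25 in siGFP, near background, where a fold change has little meaning. In each of these 4 lists the sums of the groups did not overlap. Without CSF1R, COL1A1 or CDH5, each in its own list, the leukocyte, fibroblast and endothelial sums of the groups overlapped, while the epithelial sums did not overlap without CDH1. The part of these markers in the results was not tested. All samples came from 1 epithelial line, so the leukocyte, fibroblast and endothelial sums describe signal at those rows, not numbers of such cells. In bulk RNA, fewer cells with a transcript and less of it per cell cannot be told apart.

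Of the 9 measured genes, 1 rose and 1 fell after ESRP1 and ESRP2 knockdown, and 7 did not pass the test. Those 7 include BBC3 and BCL2, which lay below or near background, so no change could be read for them. Both are counted in the shares below. The anti-apoptotic gene BCL2L1 rose 1.25-fold and the BH3-only gene BIK fell 1.25-fold. The share that passed was 22.2% of the measured members, near the 20.2% of all rows that passed limma at an adjusted p under 0.05. Of all rows, 10.9% were higher and 9.31% lower in siESRP. The groups of 4 arrays did not overlap in 3 of the 9 genes (BCL2L1, BIK and BAK1), or 33.3%, against 24.7% of all rows. These counts are of normalized values. On the deposited scale the groups of BCL2L1 and BAK1 overlapped, and those of BIK did not. Changes were small. The median absolute log2 difference was 0.24 over the members and 0.21 over all rows, and 32.2% of all rows had a larger absolute difference than the largest of the members, 0.33 for BIK. The median signed difference was 0 over the members, set by the unmeasurable BBC3, and −0.02 over all rows. At an unadjusted p under 0.05 there were 5 members, or 55.6%, against 32.6% of all rows. At that cutoff 1 member was higher and 1 lower on the deposited scale, and 2 were higher and 1 lower with the replicate block. The share of all rows includes dim rows, and the members were chosen with earlier results of these data known. The 55.6% is therefore not read as a result about the family.

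**Figure D1:**
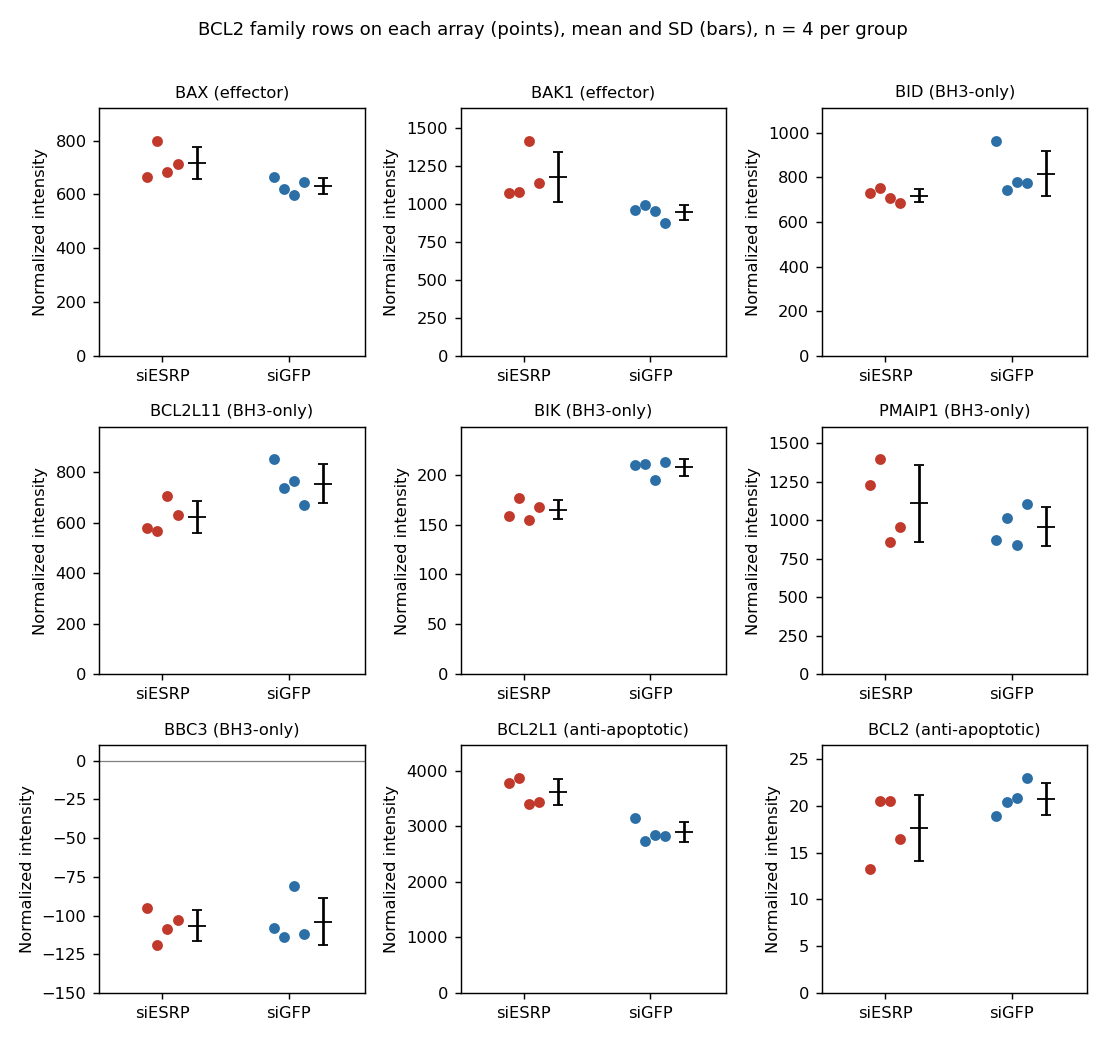
Normalized intensity (vertical axes, each on its own scale) of the 9 measured BCL2 family rows on the 4 siESRP arrays (red, left) and the 4 siGFP arrays (blue, right), with the mean and SD of each group as bars. The groups do not overlap for BAK1, BIK and BCL2L1, all BBC3 points lie below 0, and all BCL2 points lie at or below 23.0.

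Among the anti-apoptotic genes, BCL2L1 encodes BCL-XL, which binds and restrains BAX and BAK1, and by alternative splicing also the shorter, pro-apoptotic BCL-XS. Its intensity was 3776, 3879, 3408 and 3447 on the siESRP arrays and 3160, 2746, 2854 and 2833 on the siGFP arrays. All 4 siESRP values lay above the highest siGFP value, and siESRP replicates 1 and 2 were the highest. The means were 3627 ± 235 in siESRP and 2898 ± 181 in siGFP (SD, n = 4 each), a log2 difference of 0.32 ± 0.07 (SE; 95% interval 0.17 to 0.48; limma adjusted p = 0.0145). The exact two-sided permutation p was 0.0286, the smallest that 4 arrays against 4 can give. The call ended on the deposited scale without normalization between arrays (log2 difference 0.34, limma adjusted p = 0.179) and with the replicate number as a block (0.32, limma adjusted p = 0.0534). The row is a gene-level summary, so the shares of BCL-XL and BCL-XS were not measured.

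BCL2, the founding member of the family, was near background in PNT2. It read 13.2, 20.5, 20.5 and 16.4 in siESRP and 18.9, 20.4, 20.8 and 23.0 in siGFP. The groups overlapped and the log2 difference of −0.24 (95% interval −0.58 to 0.10) did not pass (limma adjusted p = 0.311). At such an intensity a fold change has little meaning, and no level of BCL2 was established in either group.

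Both effectors had positive differences and neither passed. BAX read 665, 800, 685 and 714 in siESRP and 666, 619, 597 and 646 in siGFP. The lowest siESRP value lay just under the highest siGFP value, and the other 3 siESRP arrays lay above all siGFP arrays. Its log2 difference was 0.18 (95% interval 0.01 to 0.34, limma adjusted p = 0.124).

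BAK1 read 1071, 1082, 1417 and 1138 in siESRP and 960, 996, 951 and 876 in siGFP. Every siESRP array lay above every siGFP array, and siESRP replicate 3 stood well above the other 3. The means were 1177 ± 163 in siESRP and 946 ± 50.6 in siGFP (SD, n = 4 each), and the log2 difference was 0.31 (95% interval 0.07 to 0.54, limma adjusted p = 0.0713). The difference was smaller without siESRP replicate 3, at 0.22, and then passed (limma adjusted p = 0.0452). It also passed with a trended and robust variance model (limma adjusted p = 0.0414). These were the only 2 of 15 alternative settings in which BAK1 passed, and on the deposited scale its limma adjusted p was 0.236.

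Of the 5 BH3-only genes, 1 passed. BIK, which acts largely from the endoplasmic reticulum, fell. It read 159, 177, 155 and 168 in siESRP and 210, 211, 195 and 213 in siGFP. All 4 siESRP values lay below the lowest siGFP value. The means were 165 ± 9.78 in siESRP and 207 ± 8.37 in siGFP (SD, n = 4 each), a log2 difference of −0.33 ± 0.06 (SE; 95% interval −0.46 to −0.19; limma adjusted p = 0.00755), and the exact two-sided permutation p was 0.0286. BIK passed in each of 15 alternative settings, with limma adjusted p between 0.00630 and 0.0485.

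BCL2L11 encodes BIM, which binds all of the anti-apoptotic proteins and can activate BAX and BAK1. It read 579, 567, 707 and 631 in siESRP and 851, 736, 764 and 668 in siGFP. The groups overlapped only through siESRP replicate 3, which lay above the lowest siGFP array. The log2 difference was −0.28 (95% interval −0.51 to −0.05, limma adjusted p = 0.0929). Without siESRP replicate 3 it was −0.35 and passed (limma adjusted p = 0.0458), as it did with array weights (−0.31, limma adjusted p = 0.0405). BCL2L11 passed in only these 2 of 15 alternative settings, and on the deposited scale its limma adjusted p was 0.316. BIM is made in several splice forms, which the gene-level row does not separate.

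BID, which is cleaved by caspase-8 and carries the death receptor signal to the mitochondria, read 729, 753, 710 and 684 in siESRP and 965, 745, 780 and 775 in siGFP. In siGFP replicate 1 the reading stood apart from the other 3, and the remaining values of the groups lay close together. The log2 difference was −0.18 (95% interval −0.38 to 0.03, limma adjusted p = 0.217), and it was −0.09 without siGFP replicate 1.

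PMAIP1 encodes NOXA, which mainly neutralizes MCL1. It read 1232, 1397, 856 and 954 in siESRP and 872, 1018, 843 and 1105 in siGFP. Within siESRP, replicates 1 and 2 were high and replicates 3 and 4 lay inside the siGFP range, so this gene had the widest spread among the well measured members. The log2 difference was 0.19 with a 95% interval from −0.22 to 0.60 (limma adjusted p = 0.515), and it was 0.07 without siESRP replicate 2.

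BBC3 encodes PUMA, a BH3-only protein that binds all of the anti-apoptotic members. Its row lay below 0 on all 8 arrays, from −119 to −95.1 in siESRP and from −114 to −81.1 in siGFP. It was 1 of 353 rows below 0 on all deposited arrays. No level or change of BBC3 could be measured, and its tabulated difference of 0 arises because values below 0 were set to 0 before the logarithm.

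**Figure D2:**
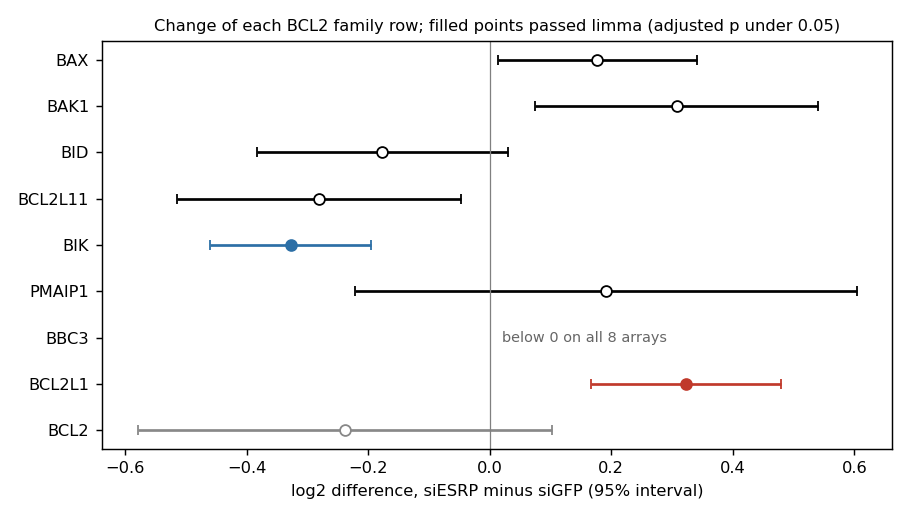
log2 difference, siESRP minus siGFP (horizontal axis), with its 95% interval for each measured BCL2 family row. Filled points passed limma at an adjusted p under 0.05, BCL2L1 (red, 0.32) and BIK (blue, −0.33). Open points did not pass, BCL2 is grey because its means lie under 50, and BBC3 has no point because it lies below 0 on all arrays.

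Promoter windows of the members were read from RefSeq (GRCh38.p14), each covering 250 bases before and 50 after an annotated start. Windows matched for 8 of the 10 members, not for BIK and MCL1. Windows are shown for BCL2L1, the member that rose and that has 2 annotated windows, and for the effectors BAX and BAK1, which both had positive differences. Capitals mark exact matches to CACGTG (the E-box bound by MYC), GGGCGG on either strand (the GC box bound by SP1) or TTCNNNGAA (the STAT site). The windows lie at chr20:31723914-31724213 and chr20:31722819-31723118 (both minus strand) for BCL2L1, at chr19:48954625-48954924 (plus strand) for BAX and at chr6:33580227-33580526 (minus strand) for BAK1. Each is printed 5′ to 3′ along the gene.
BCL2L1, upstream window: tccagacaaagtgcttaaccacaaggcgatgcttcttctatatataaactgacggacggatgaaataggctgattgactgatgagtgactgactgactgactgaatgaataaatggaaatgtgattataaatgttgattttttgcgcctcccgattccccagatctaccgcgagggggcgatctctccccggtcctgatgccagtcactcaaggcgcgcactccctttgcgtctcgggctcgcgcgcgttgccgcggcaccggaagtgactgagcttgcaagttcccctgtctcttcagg
BCL2L1, downstream window: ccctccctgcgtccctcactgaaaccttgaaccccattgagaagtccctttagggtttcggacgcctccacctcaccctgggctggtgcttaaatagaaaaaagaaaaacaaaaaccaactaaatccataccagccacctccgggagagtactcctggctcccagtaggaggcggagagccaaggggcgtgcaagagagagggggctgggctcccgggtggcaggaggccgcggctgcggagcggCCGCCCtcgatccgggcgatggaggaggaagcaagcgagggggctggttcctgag
BAX: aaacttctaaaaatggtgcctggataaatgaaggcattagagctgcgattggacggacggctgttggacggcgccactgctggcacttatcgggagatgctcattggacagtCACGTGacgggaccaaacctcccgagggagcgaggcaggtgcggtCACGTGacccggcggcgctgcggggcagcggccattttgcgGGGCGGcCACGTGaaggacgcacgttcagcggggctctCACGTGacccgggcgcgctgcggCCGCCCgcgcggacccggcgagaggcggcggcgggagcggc
BAK1: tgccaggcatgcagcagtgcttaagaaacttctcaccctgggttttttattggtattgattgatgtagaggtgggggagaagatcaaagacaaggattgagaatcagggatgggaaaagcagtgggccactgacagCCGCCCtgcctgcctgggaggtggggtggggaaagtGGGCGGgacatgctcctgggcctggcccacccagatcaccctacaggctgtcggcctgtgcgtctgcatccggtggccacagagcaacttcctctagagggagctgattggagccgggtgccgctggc

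The upstream BCL2L1 window held none of the 3 motifs, and the downstream window held 1 GC box. The BAX window held 4 copies of CACGTG and 2 GC boxes. At least 1 CACGTG was found in 7.26% of 35116 windows of the same length, and 4 or more in 0.0142%, or 5 windows. The cutoff of 4 is the count in the BAX window itself, and other member windows and motifs were read too. The share is therefore descriptive and not a test. The BAK1 window held 2 GC boxes. A GC box was found in 45.0% of all windows and TTCNNNGAA in 7.66%. No member window held TTCNNNGAA. Of the windows not shown, that of BBC3 and some of BID held 1 CACGTG. GC boxes numbered 4 for PMAIP1, up to 4 for BID, 3 for BCL2L11, and 0 for BBC3 and BCL2. BID and BCL2L11 had negative differences, so the motifs were not particular to members with positive ones. These matches describe the letters of the windows and do not show binding. Among factors that recognize such sites, MYC had a log2 difference of 0.00 (limma adjusted p = 1) and STAT3 rose 1.16-fold. The rise of STAT3 did not pass on the deposited scale or with median scaling.

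The genes that work with the BCL2 family were described through 6 lists, of which 50 of 65 genes had a single-symbol row. Of these 50, 7 rose and 9 fell, or 32.0% against 20.2% of all rows, with a median log2 difference of −0.12 against −0.02. The share of all rows includes dim rows that seldom pass. With the dimmest 25% of rows left out, 3964 of 13871 rows passed, a share nearer to that of the lists. The lists were also chosen with earlier results of these data known. Neither the 32.0% nor the share of any single list below is therefore read as a result about the pathway. On the deposited scale, without normalization between arrays, 5 of these 16 calls held (PARP1 and BTRC higher, PPIF, DDIT3 and MARCHF5 lower) and the other 11 did not pass. Among 7 other BCL2 family genes, 0 passed limma in either direction and 2 had an unadjusted p under 0.05. These were BCL2L13, a mitochondrial membrane protein, with 685 ± 33.6 in siESRP and 760 ± 31.3 in siGFP (SD, n = 4 each), and BCL2L14, with 70.8 ± 19.5 in siESRP and 99.4 ± 9.46 in siGFP. BCL2L2, the anti-apoptotic BCL-W, read 477, 487, 251 and 357 in siESRP and 346, 468, 435 and 519 in siGFP, with overlapping groups. BCL2L10 lay below 0 on all arrays.

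Downstream of the mitochondria, 1 of 8 genes (12.5%) of the apoptosome, caspases and their substrates passed, against 20.2% of all rows, and it rose. This was PARP1, a DNA repair enzyme that is cleaved during apoptosis, with 2118, 1936, 2115 and 2094 in siESRP and 1336, 1275, 1411 and 1211 in siGFP. All siESRP values were above all siGFP values, a 1.58-fold increase (limma adjusted p = 6.04e-04). APAF1, the scaffold of the apoptosome, had a log2 difference of 0.31 and did not pass (limma adjusted p = 0.114), nor did cytochrome c (CYCS, 0.15) or CASP9 (−0.08). AIFM1, a flavoprotein released from mitochondria, averaged 274 ± 50.7 in siESRP and 383 ± 32.1 in siGFP (SD, n = 4 each) with groups that did not overlap, and did not pass (limma adjusted p = 0.0561).

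Of 7 inhibitor of apoptosis genes and their antagonists, 2 rose and 1 fell, or 42.9% against 20.2% of all rows. DIABLO, the mitochondrial protein SMAC that displaces caspases' inhibitors, rose 1.27-fold to 1581 ± 117 in siESRP, against 1245 ± 72.5 in siGFP (SD, n = 4 each). BIRC6 rose 1.21-fold. BIRC5, which encodes survivin and also serves in mitosis, fell 1.33-fold to 1298 ± 121 in siESRP, against 1725 ± 96.4 in siGFP. A second BIRC5 row lay near background. XIAP, the direct caspase inhibitor, had a log2 difference of 0.05 and did not pass.

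Of 11 mitochondrial partners, 1 rose and 3 fell, or 36.4% against 20.2% of all rows. PPIF, the cyclophilin of the permeability transition pore, had the largest decrease of these 11 rows, 1.57-fold, with 1751, 2035, 1900 and 2051 in siESRP and 2778, 3378, 2700 and 3303 in siGFP. The groups were far apart. BNIP3, a BH3-like mitophagy receptor, fell 1.27-fold, and VDAC3, an outer membrane channel, fell 1.18-fold with overlapping groups. OPA1, which shapes the cristae, rose 1.24-fold. VDAC2, the channel that binds BAK1, had a log2 difference of −0.05 and did not pass, nor did MTCH2, the membrane receptor for cleaved BID (−0.20).

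Of 5 genes for turnover of BCL2 family proteins, 2 rose and 1 fell, or 60% against 20.2% of all rows. The ubiquitin ligase subunits FBXW7 and BTRC, both reported to mark MCL1 or BIM for degradation, rose 1.46-fold and 1.58-fold. BTRC read 633, 706, 589 and 591 in siESRP and 336, 485, 360 and 419 in siGFP. MARCHF5, a mitochondrial ubiquitin ligase reported to act on MCL1 and NOXA, fell 1.32-fold to 1474 ± 30.7 in siESRP, against 1959 ± 288 in siGFP (SD, n = 4 each). USP9X and HUWE1, which remove ubiquitin from and add it to MCL1, are not analysed here.

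Of 12 transcription factors reported at BCL2 family genes, 1 rose and 4 fell, or 41.7% against 20.2% of all rows. STAT3, reported to drive BCL2L1, averaged 3101 ± 96.3 in siESRP and 2679 ± 82.2 in siGFP (SD, n = 4 each; limma adjusted p = 0.0130). It did not pass on the deposited scale (limma adjusted p = 0.252) or with median scaling (limma adjusted p = 0.0540). The NF-kappaB subunits NFKB1 and RELA, also reported to drive BCL2L1, fell 1.28-fold and 1.29-fold. DDIT3 (CHOP), a stress factor reported to induce BIM, fell 1.48-fold, and E2F1, reported to induce several BH3-only genes, fell 1.36-fold. E2F1 did not pass on the deposited scale (limma adjusted p = 0.129) or with median scaling (limma adjusted p = 0.0503). NFKB1 and RELA passed with median scaling but not on the deposited scale, and DDIT3 passed in both. FOXO1 did not pass (log2 difference −0.33, limma adjusted p = 0.225), and FOXO3 is not analysed here.

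**Figure D3:**
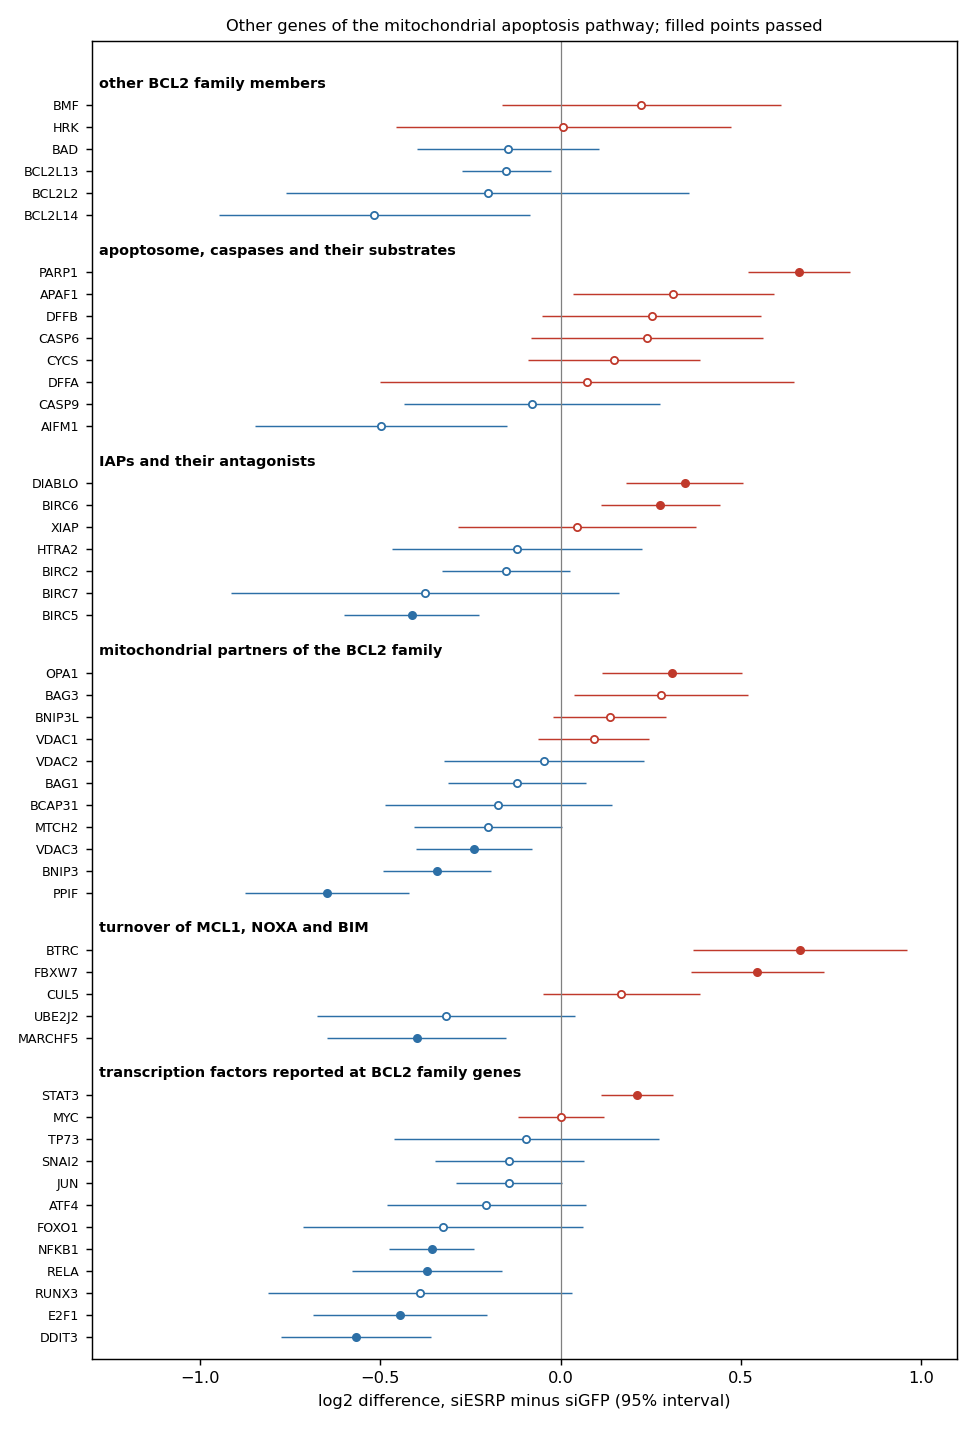
log2 difference, siESRP minus siGFP (horizontal axis), with its 95% interval for 49 pathway genes that had a group mean of at least 50, grouped by list. Filled points passed limma, 7 of them higher in siESRP (red) and 9 lower (blue). PARP1, BTRC and FBXW7 lie farthest right among filled points, and PPIF and DDIT3 farthest left.

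BIK had the smallest p of the members, and the genes most like it over the 8 arrays were sought among 9645 other single-symbol rows with all values above 0 and a group mean of at least 100. The highest Pearson correlations of log2 intensity with BIK were those of VPS28 (0.995), DPF2 (0.993), SBF1 (0.992), MISP (0.989) and ACTN1 (0.989). All 5 fell, between 1.27-fold for ACTN1 and 1.39-fold for MISP. After group means were subtracted, their correlations with BIK were between 0.910 and 0.983 over the same 8 arrays. The 5 genes were picked by their correlation over these arrays, so these high values follow in part from that choice and test nothing. Of the rows compared, 153 had a correlation above 0.95. The points share the group difference and the scaling of each array.

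**Figure D4:**
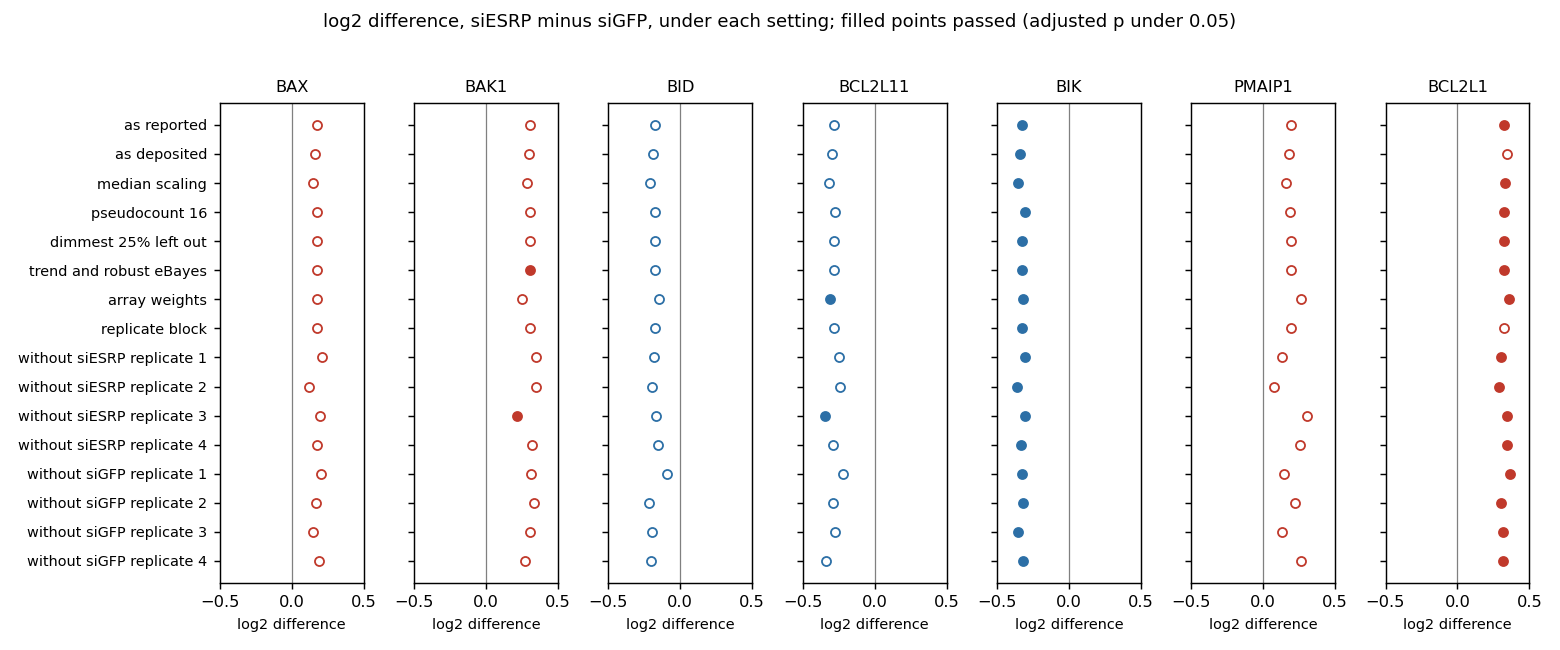
log2 difference, siESRP minus siGFP (horizontal axes), of the 7 well measured members as reported and under 15 alternative settings (vertical axis). Filled points passed limma at an adjusted p under 0.05. BIK is filled throughout, BCL2L1 is open on the deposited scale and with the replicate block, BAK1 and BCL2L11 are filled in 2 settings each, and no point crosses 0.

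Across these settings, BAX ran from 0.12 to 0.21 and passed in 0 of 15, PMAIP1 from 0.07 to 0.31 and BID from −0.22 to −0.09, also with 0 passing (limma; smallest adjusted p of the 3 genes 0.114, 0.239 and 0.168). BCL2L1 ran from 0.29 to 0.37 and passed in 13, and leaving out any 1 array kept its adjusted p between 0.0132 and 0.0457.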

How the data were processed

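RNA of 4 siESRP and 4 siGFP PNT2 samples was measured on Affymetrix exon arrays, and groups came from the sample titles. The authors deposited 1 table of linear intensity values for 18495 rows, all whole numbers, with 2.70% to 4.02% of rows per array below 0; how probes were summarized and scaled is not given in the sources used here. Medians of the arrays lay between 233 and 286 (0.29 apart as log2). Arrays were therefore quantile normalized, negative values were raised to 0, and the scale for testing was log2(value + 1). The test was limma 3.58.1 (R 4.3.3; lmFit, eBayes), two-sided and without covariates, fitted to all 8 arrays. P-values were adjusted by Benjamini-Hochberg across the whole table, and an adjusted p under 0.05 passed. Fold changes are on the log2(value + 1) scale. The code was tested on simulated data.

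Names came from GEO's platform annotation, with 14577 rows of 1 symbol, 2849 of several and 1069 of none. Named genes are all members, the genes of each list that passed (up to 4 by smallest p), list genes that complete a small count, and the 5 genes most like the called member with the smallest p. List genes named beyond these were chosen after their values were seen. Members and lists were chosen with earlier results of these data known. Same-numbered arrays of the groups had deviations that correlated between −0.277 and 0.154, so the numbers were not taken as pairs. The number of arrays limits the precision. Alternatives were other scaling, a pseudocount of 16, leaving out the dimmest 25% of rows, other variance models, array weights, the replicate block and leaving out each array. Some genes of the lists are not reported here.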

Additional observations from a re-analysis of the deposited data

Results flagged for a closer look

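A single array lay far from the remaining 3 of its group in 8 of 118 sets of 4 values (gap to the nearest array over the whole range, beyond Dixon's 95% limit), and chance gives about 1 in 20, or 5.9. Of the members, BID in siGFP had replicate 1 high (ratio 0.839) and BIK in siGFP had replicate 3 low (0.868). Without these arrays the log2 differences were −0.09 for BID and −0.35 for BIK. Of the pathway genes, PARP1 had siESRP replicate 2 low (0.870), BIRC6 siESRP replicate 3 high (0.972) and BAG1 siESRP replicate 4 low (0.900). In siGFP, RELA had replicate 3 low (0.849), and DFFB (0.848) and TP73 (0.869) had replicate 4 high.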

How the results depend on the processing

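No member changed sign in any alternative run, BBC3 excepted, which has no measured difference. As reported, 1 member was higher and 1 lower. On the deposited scale 0 were higher in limma (1 at an unadjusted p under 0.05) and 1 lower, and with the replicate block 0 were higher (2 unadjusted) and 1 lower. With a trended and robust variance model 2 were higher, and with array weights 2 were lower. Leaving out 1 array gave 1 to 2 higher and 1 to 2 lower, with the counts of 2 arising without siESRP replicate 3. The cause was not tested. Over all rows, 3729 passed as reported, 1673 on the deposited scale, 2292 with the replicate block and 1808 at an adjusted p under 0.01, and 2719 to 3793 when 1 array was left out. Of the 50 other pathway genes, 16 passed as reported, 5 on the deposited scale (2 higher, 3 lower) and 11 with median scaling. Over all rows the log2 difference had a median of −0.02 as reported, −0.10 as deposited and −0.11 with median scaling. No member had several rows, so averaging rows of a gene gave no value. With the dimmest rows left out, BBC3 and BCL2 were not tested. Signal near background limits BCL2 and BBC3.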
